A study of Mus musculus with 96 samples.

Results

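RNA of back-skin epidermis at circadian time (CT) 8 was compared between 4 genotypes, with 4 mice and so 4 libraries of each. These 16 of the 96 libraries of the series were chosen by their time label alone, without any measured value. The other 80 libraries come from the same genotypes at 5 other times, spaced 4 h apart, and serve here to show where CT8 lies in the day. CT8 is 8 h after the usual lights-on, in mice that had been in constant darkness for 156 to 176 h.

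All mice were C57BL/6 females of 8 weeks. RERE mice were Arntl stopFL/stopFL, K14Cre tg/wt and Syt10-Cre tg/wt. EpiRE mice were Arntl stopFL/stopFL, K14Cre tg/wt and Syt10-Cre wt/wt. BRE mice were Arntl stopFL/stopFL, K14Cre wt/wt and Syt10-Cre tg/wt. WT mice were Arntl wt/wt and carried both transgenes, K14Cre wt/tg and Syt10-Cre tg/wt, so that every group had at least 1 Cre. The stopFL allele is blocked until Cre removes its stop cassette. The clock was thereby restored in epidermis and brain (RERE), in epidermis (EpiRE) or in brain (BRE), per the labels, and was left intact in WT. K14Cre is driven by the keratin 14 promoter, which is active in basal keratinocytes and also in other stratified epithelia. Syt10-Cre is used for the suprachiasmatic nucleus, the brain's central clock. A stopFL/stopFL mouse without Cre was not analysed here. The question at this time is which clock and output genes the epidermis holds at their WT level when its own clock, the brain clock or both are present.

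The circadian clock is a transcriptional loop. BMAL1, the product of Arntl, pairs with CLOCK or NPAS2, binds E-boxes (CACGTG) and activates the Per and Cry repressors, the REV-ERB receptors Nr1d1 and Nr1d2, the PAR bZIP factor genes Dbp, Tef and Hlf, and the repressor genes Bhlhe40, Bhlhe41 and Ciart. REV-ERB proteins repress Arntl, Npas2 and other genes through elements that the ROR receptors use as activators, and NFIL3 opposes the PAR bZIP factors at D-boxes. In mouse skin, which has its own clock, REV-ERB and Dbp RNA is high and Arntl RNA low in the middle to end of the subjective day, where CT8 lies.

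The CT8 libraries held 11.62 to 17.32 M (mega) recovered reads, the median being 15.01 M, and 15396 to 16101 genes had reads. RERE libraries were the shallowest, at a median of 12.35 M reads, against 14.99 M in EpiRE, 15.71 M in BRE and 16.42 M in WT. Levels are log2 RPKM (reads per kilobase of gene and M reads) and differences are on the same log2 scale. Summed basal keratinocyte markers reached 13500 to 18400 RPKM in every library, and the sums of endothelial, adipocyte, muscle, red blood cell, hair shaft, Merkel cell, and mast cell and neutrophil markers were at most 9.24 RPKM. Some libraries stood apart. Summed suprabasal keratinocyte markers were 11292 RPKM in EpiRE replicate 1, 12370 in WT replicate 3 and 11877 in WT replicate 4, against 16823 to 25353 RPKM in the other 13 libraries. EpiRE replicate 1 also lay farthest from its group, with an SD over genes of 0.397 (log2) around the mean of the other 3 libraries, against 0.245 to 0.337 for the other 15. BRE replicate 4 had summed fibroblast markers of 32.5 RPKM, against 12.7 to 19.1 elsewhere. Calls given here that are lost without these libraries are marked beside their results. In bulk tissue, fewer cells of a type and less RNA per cell cannot be told apart.

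Promoter sequences show which of the motifs named above lie at the starts of the genes whose levels are described next. RefSeq promoters (GRCm38.p6, 250 bases before to 50 after the start) were listed for 17 of the 20 core clock genes, 22 promoters in all. A gene was counted if any of its promoters had a match, while the shares beside the counts are per promoter, a stricter measure. The E-box CACGTG, searched on both strands, was present in promoters of 5 of these genes (Per1, Cry1, Tef, Bhlhe41 and Ciart), against 7.15% of all 32851 promoters. The related CACGTT was present in 3 (Nr1d1, Cry1 and Cry2), against 4.68%, and neither motif overlaps the other. The D-box TTATGTAA was present in 1 (Per3), against 0.938%, and TTACGTAA in 0, against 0.119%. A 10-base REV-ERB and ROR element was present in 1 (Arntl), against 0.219%. Per1 and Arntl each also had a listed promoter without the match. The 5 promoters below are shown because each has a match, in capitals, and belongs to a gene that differed between genotypes. Those of Ciart, Tef and Cry1 have E-boxes (in Cry1 with CACGTT read on the other strand, AACGTG), that of Per3 has D-boxes and that of Arntl the REV-ERB element. Positions are chr3:95882179-95882478 (minus strand) for Ciart, chr15:81802423-81802722 (plus) for Tef, chr10:85185005-85185304 (minus) for Cry1, chr4:151044616-151044915 (minus) for Per3 and chr7:113207261-113207560 (plus) for Arntl. A match is a description of the letters and not of binding.
Ciart: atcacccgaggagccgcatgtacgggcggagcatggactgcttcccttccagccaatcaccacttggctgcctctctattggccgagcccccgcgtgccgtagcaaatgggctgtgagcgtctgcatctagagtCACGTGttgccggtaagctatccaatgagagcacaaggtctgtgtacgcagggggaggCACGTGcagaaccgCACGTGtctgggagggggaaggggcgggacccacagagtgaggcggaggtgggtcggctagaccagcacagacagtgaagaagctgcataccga
Tef: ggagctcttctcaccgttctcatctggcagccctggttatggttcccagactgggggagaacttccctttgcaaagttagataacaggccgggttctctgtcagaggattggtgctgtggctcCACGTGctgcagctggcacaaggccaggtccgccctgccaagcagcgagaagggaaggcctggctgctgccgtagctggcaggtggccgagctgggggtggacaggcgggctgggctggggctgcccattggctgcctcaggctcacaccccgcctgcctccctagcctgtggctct
Cry1: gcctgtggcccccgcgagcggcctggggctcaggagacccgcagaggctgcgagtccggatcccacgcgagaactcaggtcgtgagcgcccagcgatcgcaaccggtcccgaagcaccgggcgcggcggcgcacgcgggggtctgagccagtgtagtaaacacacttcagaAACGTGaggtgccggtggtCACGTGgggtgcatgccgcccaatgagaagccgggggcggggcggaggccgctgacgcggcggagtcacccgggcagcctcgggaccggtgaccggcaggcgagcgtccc
Per3: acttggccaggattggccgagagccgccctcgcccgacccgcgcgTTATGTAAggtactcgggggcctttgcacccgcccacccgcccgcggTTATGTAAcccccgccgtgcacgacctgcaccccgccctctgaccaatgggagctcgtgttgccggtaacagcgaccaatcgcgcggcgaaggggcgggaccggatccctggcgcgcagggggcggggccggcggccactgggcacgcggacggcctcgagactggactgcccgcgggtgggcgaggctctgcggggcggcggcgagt
Arntl: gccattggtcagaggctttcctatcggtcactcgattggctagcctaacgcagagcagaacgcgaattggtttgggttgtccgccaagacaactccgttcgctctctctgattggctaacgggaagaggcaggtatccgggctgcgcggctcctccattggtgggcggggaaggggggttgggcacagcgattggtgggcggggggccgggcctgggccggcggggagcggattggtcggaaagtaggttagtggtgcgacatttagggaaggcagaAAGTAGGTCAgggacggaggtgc

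Arntl, the gene that carries the stop cassette (ENSMUSG00000055116, mm10 chromosome 7, 113207465 to 113314126), had its highest RNA levels in the genotypes with 1 restored site. Its levels were 2.67, 2.97, 2.92 and 2.79 log2 RPKM in RERE, 3.90, 4.07, 4.01 and 3.99 in EpiRE, 3.88, 3.82, 3.89 and 3.92 in BRE, and 3.21, 3.12, 2.74 and 2.71 in WT. Every EpiRE and BRE library lay above every RERE and WT library, and RERE overlapped WT. Means were 3.99 ± 0.07 in EpiRE and 2.95 ± 0.26 in WT (SD, n = 4 each), a difference of 1.05 (two-sided exact permutation test, p = 0.0286, the smallest that 4 against 4 allow; 0.0429 adjusted over the 6 pairs of genotypes). BRE, at 3.88 ± 0.04, exceeded WT by 0.93, with the same p. RERE, at 2.83 ± 0.13, was lower than EpiRE by 1.16 and lower than BRE by 1.04 with that p too, and its difference from WT was -0.11 (exact permutation p = 0.486). EpiRE and BRE differed by 0.12 (exact permutation p = 0.0571). Arntl RNA in BRE epidermis, where the labels give no Cre for keratinocytes, was thus not low at this time. Gene-level values do not tell a transcript that includes the stop cassette from one that lacks it.

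Clock RNA rose in BRE only modestly and Npas2, the BMAL1 partner gene that can stand in for Clock, rose strongly in BRE and less in EpiRE. Npas2 (mm10 chromosome 1, 39193731 to 39363236) had levels of 1.17, 0.88, 0.93 and 0.93 log2 RPKM in RERE, 2.65, 2.39, 2.13 and 2.01 in EpiRE, 4.59, 4.58, 4.32 and 4.50 in BRE, and 1.38, 1.59, 1.26 and 0.98 in WT. No BRE library came within 1 log2 unit of a library of another genotype, and all EpiRE libraries lay above all RERE and WT libraries. By limma's moderated test with Benjamini-Hochberg adjustment over all 11045 genes, Npas2 was higher by 3.20 in BRE than in WT (adjusted p = 4.09e-10) and by 0.99 ± 0.14 (SE) in EpiRE than in WT (adjusted p = 0.00322). BRE also exceeded EpiRE, by 2.20 (EpiRE minus BRE -2.20, adjusted p = 1.18e-07). The EpiRE call was lost without the 3 libraries of low suprabasal markers. Clock levels were 2.85 to 3.25 in RERE, 3.08 to 3.45 in EpiRE, 3.52 to 3.64 in BRE and 3.01 to 3.13 in WT, and BRE exceeded WT by 0.52 ± 0.09 (adjusted p = 0.00352), while EpiRE minus WT was 0.28 (adjusted p = 0.421).

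The REV-ERB genes fell to very low levels in BRE and to intermediate levels in EpiRE. Nr1d1 (ENSMUSG00000020889, mm10 chromosome 11, 98767932 to 98775333), which encodes REV-ERBα, had levels of 7.35, 7.25, 7.31 and 7.21 log2 RPKM in RERE, 6.42, 5.98, 5.82 and 5.80 in EpiRE, 2.05, 2.19, 2.14 and 2.06 in BRE, and 7.40, 7.37, 7.25 and 7.45 in WT. The 4 BRE libraries lay together far below all others, the 4 EpiRE libraries lay below every RERE and WT library, and RERE overlapped WT. BRE minus WT was -5.26 (adjusted p = 6.93e-15), EpiRE minus WT was -1.37 ± 0.10 (adjusted p = 5.12e-06), EpiRE minus BRE was 3.89 (adjusted p = 7.91e-13) and RERE minus WT was -0.09 (adjusted p = 0.958). Nr1d2, for REV-ERBβ, averaged 5.45 ± 0.04 in RERE, 4.70 ± 0.26 in EpiRE, 2.13 ± 0.22 in BRE and 5.45 ± 0.18 in WT, with BRE minus WT at -3.31 (adjusted p = 6.35e-11). Its EpiRE minus WT of -0.75 (adjusted p = 0.0145) was lost without EpiRE replicate 2, EpiRE replicate 3, WT replicate 1 or WT replicate 3. Rora, for an ROR activator, averaged 3.15 in RERE, 3.17 in EpiRE, 2.97 in BRE and 3.13 in WT, with no call.

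Among the Period and Cryptochrome repressors, Per3 and Cry1 moved in opposite directions and most strongly in BRE. Per3 had levels of 4.75, 4.42, 4.63 and 4.68 log2 RPKM in RERE, 3.80, 3.40, 3.72 and 3.79 in EpiRE, 1.80, 1.47, 1.55 and 1.28 in BRE, and 4.59, 4.30, 4.60 and 4.46 in WT. Cry1 had levels of 2.31, 2.89, 3.12 and 2.84 in RERE, 3.21, 3.76, 3.83 and 3.77 in EpiRE, 5.16, 4.94, 5.27 and 5.16 in BRE, and 2.58, 2.78, 2.76 and 3.06 in WT. For either gene the 4 BRE libraries stood apart, EpiRE lay between BRE and the other genotypes without overlap, and RERE overlapped WT. Per3 was lower by 2.96 in BRE than in WT (BRE minus WT -2.96, adjusted p = 7.97e-11), and its EpiRE minus WT was -0.81 (adjusted p = 0.00322, not called without the 3 libraries of low suprabasal markers). Cry1 was higher by 2.34 in BRE than in WT (adjusted p = 1.96e-07). Cry1's EpiRE minus WT of 0.85 (adjusted p = 0.0336) was lost when any of 8 libraries was left out (RERE 4, EpiRE 2, EpiRE 3, EpiRE 4, BRE 1, WT 1, WT 2 or WT 3), with adjusted p up to 0.133. Cry2 fell in BRE, with levels of 4.31 to 4.48 in RERE, 3.73 to 4.19 in EpiRE, 3.73 to 3.86 in BRE and 4.37 to 4.57 in WT (BRE minus WT -0.66, adjusted p = 0.00032). Per1 was not called in any pair of genotypes, with libraries scattered from 5.51 to 6.61 in RERE, 4.45 to 6.68 in EpiRE, 4.74 to 5.68 in BRE and 5.54 to 6.98 in WT. Its BRE minus WT was -1.002 ± 0.40 (adjusted p = 0.17).

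**Figure D1:**
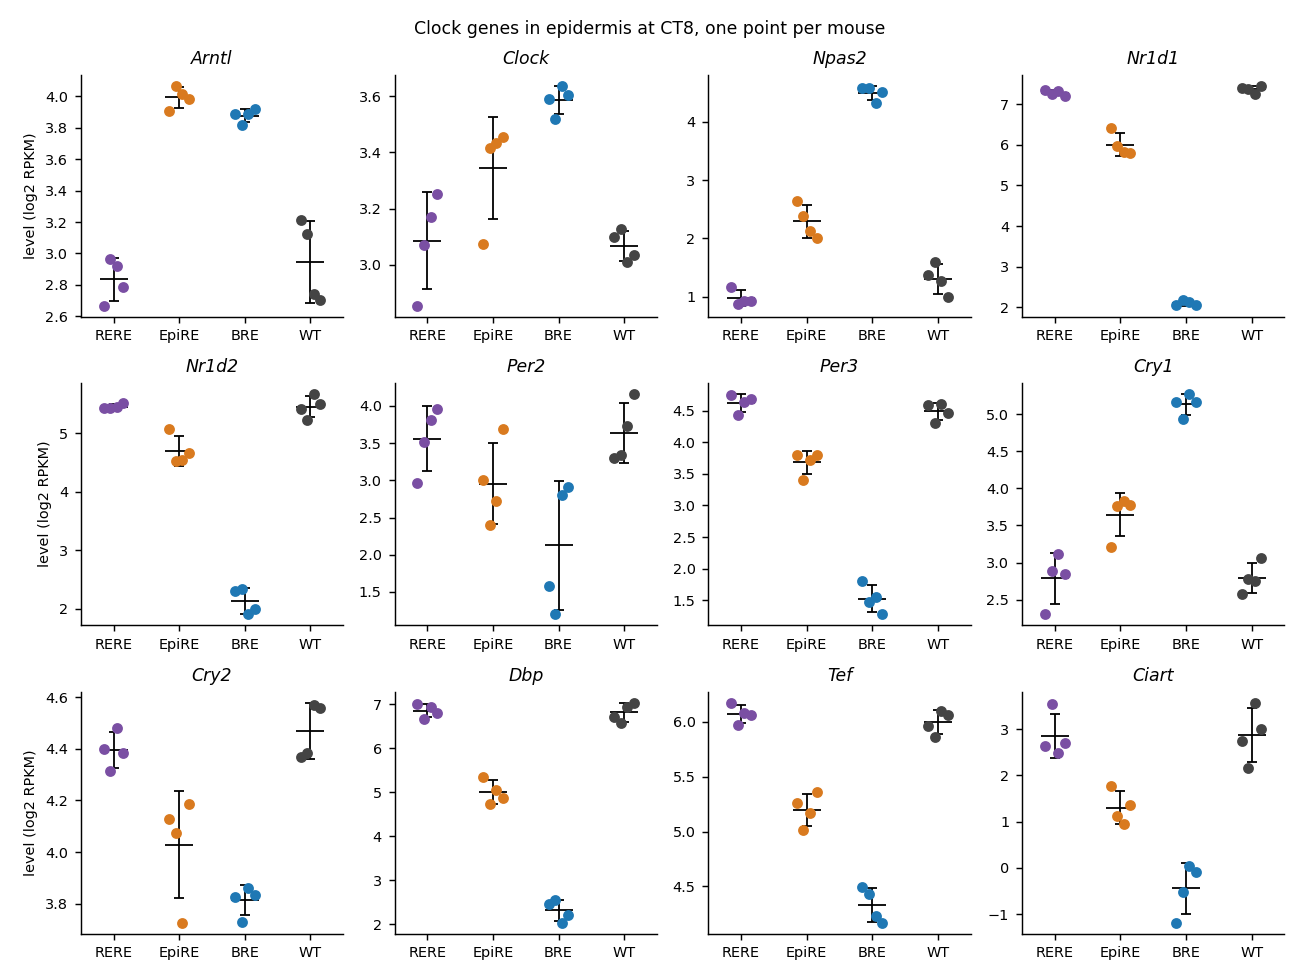
Level of 12 clock genes (log2 RPKM, vertical axes that do not start at 0) in each CT8 library; points are mice, horizontal lines means and error bars SD (n = 4 per genotype). BRE libraries lie at the extreme in 9 of the 12 panels without overlap (Clock, Npas2, Nr1d1, Nr1d2, Per3, Cry1, Dbp, Tef and Ciart), and RERE overlaps WT in each of these panels. Of all genes tested, 4.98% had all 4 BRE libraries above all 4 WT libraries and 8.1% below. These shares set BRE against WT alone, a looser measure than the panel count, which sets BRE against every other genotype.

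Of the PAR bZIP factor genes, which carry clock output to D-box genes, Dbp and Tef were lower in EpiRE than in WT and lower still in BRE. Dbp (ENSMUSG00000059824, mm10 chromosome 7, 45705088 to 45710203) had levels of 7.01, 6.67, 6.94 and 6.80 log2 RPKM in RERE, 5.36, 4.73, 5.04 and 4.86 in EpiRE, 2.46, 2.56, 2.03 and 2.22 in BRE, and 6.72, 6.57, 6.94 and 7.04 in WT. The highest EpiRE library lay below the lowest RERE and WT libraries, and the highest BRE library lay below the lowest EpiRE library. EpiRE minus WT was -1.82 ± 0.14 (adjusted p = 5.12e-06), BRE minus WT was -4.50 (adjusted p = 5.16e-12) and EpiRE minus BRE was 2.68 (adjusted p = 1.05e-08). Tef had levels of 5.97 to 6.18 in RERE, 5.01 to 5.36 in EpiRE, 4.17 to 4.49 in BRE and 5.86 to 6.10 in WT, and the steps from EpiRE to WT (EpiRE minus WT -0.80, adjusted p = 0.000273) and between EpiRE and BRE (0.87, adjusted p = 3.92e-05) were of near-equal size. Hlf had levels of 5.10 to 5.62 in RERE, 4.69 to 5.08 in EpiRE, 4.28 to 4.82 in BRE and 4.89 to 5.29 in WT, and its EpiRE minus WT was -0.20 (adjusted p = 0.854). Its BRE minus WT of -0.53 (adjusted p = 0.0349) was lost without BRE replicate 3 or 4 or WT replicate 1 or 3, under median-of-ratios scaling, without the 3 libraries of low suprabasal markers (0.115) and without EpiRE 1 and BRE 4 together (0.072). Nfil3, whose product opposes these factors, was low in RERE, with levels of 0.82, 2.51, 1.96 and 2.35, against 4.81, 4.76, 3.44 and 3.70 in EpiRE. Its 4 BRE libraries lay at 3.29, 3.69, 3.59 and 4.43, and its WT libraries were the most scattered, at 1.97, 3.37, 4.37 and 3.38. The Nfil3 call of RERE minus EpiRE (-2.26, adjusted p = 0.0384) was lost when any RERE library, EpiRE 1 or 2, BRE 1 or 3, or WT 2 was left out, with adjusted p up to 0.171. It was also lost without the 3 libraries of low suprabasal markers and without EpiRE 1 and BRE 4 together.

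Of the remaining repressor genes, Ciart and Bhlhe40 were called. Ciart, which encodes a repressor of the CLOCK:BMAL1 complex, averaged 2.85 ± 0.47 log2 RPKM in RERE, 1.30 ± 0.35 in EpiRE, -0.44 ± 0.55 in BRE and 2.88 ± 0.58 in WT. No BRE library (the highest at 0.05) overlapped an EpiRE library (the lowest at 0.94). BRE minus WT was -3.31 (adjusted p = 7.9e-06), and EpiRE minus WT was -1.58 (adjusted p = 0.0436, lost when RERE 1, 3 or 4, EpiRE 2, 3 or 4, BRE 2, or WT 1, 3 or 4 was left out, and 0.194 without the 3 libraries of low suprabasal markers). Bhlhe40, for DEC1, fell in BRE alone among the comparisons with WT, with levels of 5.80 to 6.20 in RERE, 5.68 to 6.995 in EpiRE, 4.52 to 5.36 in BRE and 5.95 to 7.09 in WT. Its BRE minus WT was -1.77 ± 0.28 (adjusted p = 0.00117), EpiRE minus WT was -0.35 (adjusted p = 0.888), and EpiRE minus BRE, the test between them, was 1.43 (adjusted p = 0.0173, not called without EpiRE 2 or BRE 1, 2 or 3). Bhlhe41 was below the level filter, with means of -0.97 in RERE, -2.22 in EpiRE, -3.99 in BRE and -0.97 in WT. Of the 5 tested casein kinase and FBXL genes, whose products set the stability of PER and CRY proteins, limma called 0 in each comparison. In BRE against WT 1 of them had an unadjusted p under 0.05, and limma-voom called 0.

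An F test over the 4 genotypes called 477 of 11045 genes (4.32%). Over the core clock list, 19 of 20 genes were tested. In BRE against WT, 5 were higher and 10 lower, where 5.42% of all genes tested were called (599 of 11045, with 2.01% higher and 3.41% lower). In EpiRE against WT, 3 were higher and 7 lower, where 0.38% of all genes were called (42, with 0.136% higher and 0.244% lower). The number lower in EpiRE was 4 without EpiRE replicate 2, EpiRE replicate 3, WT replicate 1 or WT replicate 3, and also 4 without the 3 libraries of low suprabasal markers together. In RERE against WT, limma called 0 (0.0% of all genes), with 3 of the 19 at an unadjusted p under 0.05 and 0 called by limma-voom. By the order of the means, BRE was lowest and EpiRE next lowest for 10 genes and BRE highest and EpiRE next highest for 4, and 5 had another order. For 8 of these 14 genes (Npas2, Nr1d1, Nr1d2, Per3, Cry1, Dbp, Tef and Ciart) EpiRE minus WT, BRE minus WT and EpiRE minus BRE were all called. The list was chosen with earlier results of these data known, so its counts describe these genes and are not an independent check.

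No gene was called between RERE and WT epidermis at this time. Limma called 0 of 11045 genes, 646 had an unadjusted p under 0.05, and limma-voom on recovered reads also called 0. Adjusting over the 6 pairs of genotypes together, in place of each alone, called 17 genes, 4 higher and 13 lower in RERE. The 95% interval of RERE minus WT lay within a 2-fold change for 10472 genes (94.8%) and within 0.5 on the log2 scale for 8335 (75.5%), with a median width of 0.488. Among the core clock genes, it lay within 2-fold for 15 of 19 (78.9%) and within 0.5 for 12 (63.2%), so that smaller differences in these genes were not detectable with 4 mice a side. The 4 libraries of RERE lay wholly above those of WT for 1.78% of genes and wholly below for 2.57%. Hpgds, for hematopoietic prostaglandin D synthase, was among the genes whose libraries did not overlap (4.82 to 5.10 in RERE, 5.11 to 5.48 in WT), with a difference of -0.37 (adjusted p = 0.664). It was lower than WT in each genotype with 1 restored site, by 0.77 in EpiRE (EpiRE minus WT -0.77, adjusted p = 0.00128) and by 0.51 in BRE (BRE minus WT -0.51, adjusted p = 0.00592).

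**Figure D2:**
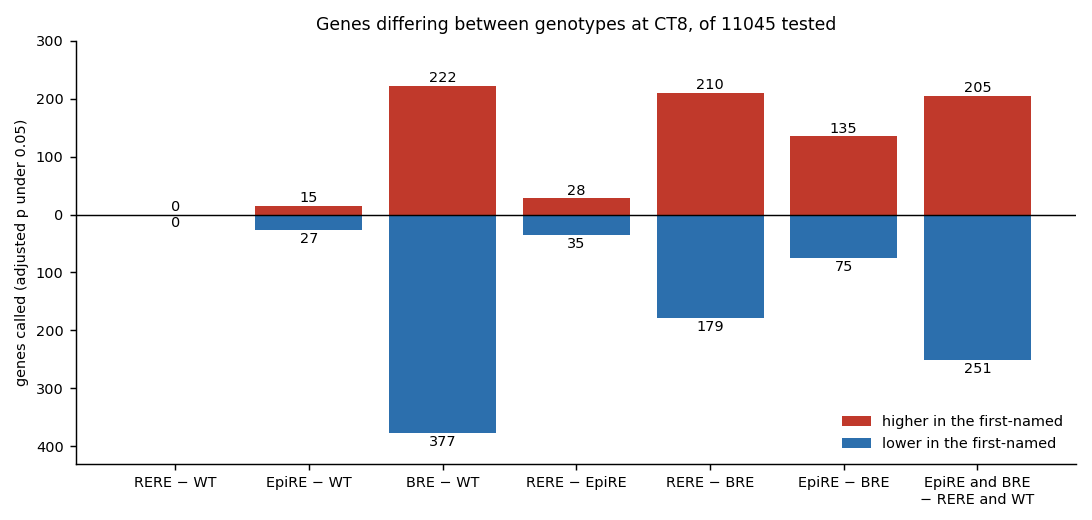
Number of genes called (limma, adjusted p under 0.05, vertical axis) of 11045 tested in each comparison at CT8, with genes higher in the first-named genotype above 0 and lower ones below. BRE minus WT has the most (222 higher, 377 lower), RERE minus WT has 0.

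EpiRE differed from WT in 42 genes (15 higher, 27 lower, 8 of them by 2-fold or more), a set that holds 10 of the 19 tested core clock genes. Outside the clock, Ccnd2 (cyclin D2, a driver of G1, mm10 chromosome 6, 127125162 to 127152193) had levels of 7.65, 7.45, 7.51 and 7.53 log2 RPKM in RERE, 6.67, 6.71, 6.61 and 6.83 in EpiRE, 6.03, 5.94, 5.92 and 6.04 in BRE, and 7.52, 7.29, 7.62 and 7.41 in WT. The EpiRE libraries lay between those of BRE and the others without overlap. EpiRE minus WT was -0.75 (adjusted p = 8.71e-05), BRE minus WT was -1.47 (adjusted p = 2.18e-09) and EpiRE minus BRE was 0.72. Leo1, a subunit of the PAF1 transcription elongation complex, had levels of 2.61 to 2.87 in RERE, 3.52 to 3.68 in EpiRE, 3.53 to 3.76 in BRE and 2.57 to 3.10 in WT. It was higher by 0.72 in EpiRE (adjusted p = 0.00322) and by 0.80 in BRE (adjusted p = 0.000174) than in WT, and EpiRE minus BRE was -0.08 (adjusted p = 0.73). Rdh12, a retinol dehydrogenase gene, averaged 4.11 ± 0.08 in RERE, 4.50 ± 0.08 in EpiRE, 4.86 ± 0.06 in BRE and 4.03 ± 0.13 in WT, with EpiRE minus WT at 0.47 (adjusted p = 0.00654, and 0.0894 without the 3 libraries of low suprabasal markers) and BRE minus WT at 0.83 (adjusted p = 2.72e-06). The count for EpiRE against WT rested on single libraries. It was 85 without EpiRE replicate 1, 18 without EpiRE replicate 2 or 3, 15 without WT replicate 1 and 23 without WT replicate 2 or 3, and 24 without the 3 libraries of low suprabasal markers.

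BRE differed from WT in 599 genes, 222 higher and 377 lower, 102 of them by 2-fold or more, with a median size of 0.57 (log2) among those called. The split depends on scaling, as median-of-ratios scaling gave 273 higher and 307 lower. The count was 329 without BRE replicate 2, 346 without BRE replicate 3, 354 without WT replicate 3 and 399 without WT replicate 4, and 295 without the 3 libraries of low suprabasal markers. Of the 14 tested clock-linked output genes, 3 were higher and 3 lower in BRE than in WT (2.01% and 3.41% of all genes tested). Ttc9 had levels of -0.03 to 0.30 log2 RPKM in RERE, 0.51 to 0.99 in EpiRE, 2.57 to 2.76 in BRE and -0.13 to 0.71 in WT, with BRE minus WT at 2.32 (adjusted p = 4.2e-07). Pdxk, for the pyridoxal kinase that activates vitamin B6 and is a PAR bZIP target in mouse liver and brain, fell in BRE to 1.41 to 1.86, against 2.44 to 2.58 in RERE, 2.48 to 2.82 in EpiRE and 2.39 to 2.72 in WT. Its BRE minus WT was -0.92 (adjusted p = 0.000128) and its EpiRE minus WT 0.02 (adjusted p = 0.993), and EpiRE minus BRE was 0.94 (adjusted p = 0.000259). Tnxb, for the matrix protein tenascin-X, was lower by 0.57 in BRE (BRE minus WT -0.57, adjusted p = 0.000496). The calls of Ttc9, Pdxk, Tnxb and Leo1 in BRE against WT held under every alternative tried.

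Some of the largest differences between BRE and WT were in genes outside the clock loop. Arsi, for an arylsulfatase family member, averaged 3.17 ± 0.27 log2 RPKM in RERE, 2.38 ± 0.30 in EpiRE, -0.85 ± 0.76 in BRE and 3.11 ± 0.11 in WT, and its BRE libraries (highest -0.11) lay below all others (lowest 2.01). BRE minus WT was -3.96 (adjusted p = 1.88e-07). Sncg, for γ-synuclein, had 2.55 to 2.95 in RERE, 1.99 to 3.40 in EpiRE, 0.38 to 1.28 in BRE and 2.76 to 3.02 in WT, with BRE minus WT at -2.07 (adjusted p = 6.35e-05) and EpiRE minus BRE at 1.84 (adjusted p = 0.000495). Ngfr, for the p75 neurotrophin receptor, was lower by 2.13 in BRE than in WT (BRE minus WT -2.13, adjusted p = 0.00178). Higher in BRE were Abhd12b (2.18 to 3.28 in RERE, 2.56 to 3.16 in EpiRE, 4.16 to 4.89 in BRE, 2.23 to 2.38 in WT, BRE minus WT 2.09, adjusted p = 1.1e-05), F3, for tissue factor (2.21, adjusted p = 0.000899), and Slc46a2 (1.79, adjusted p = 0.00369). Hs3st6, for a heparan sulfate 3-O-sulfotransferase, was higher by 1.06 in BRE (adjusted p = 1.82e-05). Mrgprb2, known as a mast cell receptor, had 1.50 to 1.81 in RERE, 1.21 to 1.74 in EpiRE, 2.47 to 3.03 in BRE and 0.83 to 1.29 in WT (BRE minus WT 1.75, adjusted p = 2.63e-06). Of the mast cell markers, Cpa3 had 0 reads in 15 of the 16 libraries, Tpsb2 in 14, Mcpt4 in 13 and Kit in 0. The cell source of Mrgprb2 RNA was not tested. All calls of BRE against WT in these 2 groups of genes, lower and higher, held under every alternative tried.

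Of the metabolic genes, in BRE against WT 2 of 9 tested fasting and fatty acid oxidation genes were higher and 0 lower (2.01% and 3.41% of all genes tested). Among them Acadl, for the long-chain acyl-CoA dehydrogenase of fatty acid oxidation, was higher by 0.73 in BRE (adjusted p = 0.000546, held under every alternative). Of 13 tested barrier lipid genes, 2 were higher. Elovl4, for an elongase of very long chain fatty acids, had levels of 7.34 to 7.67 log2 RPKM in BRE and 6.38 to 7.10 in WT, without overlap (BRE minus WT 0.69, adjusted p = 0.0223), a call lost without BRE replicate 2 or 3, WT replicate 3 or 4, or the 3 libraries of low suprabasal markers. Cers3, a ceramide synthase gene, was at 0.31 (adjusted p = 0.0482), lost without any library other than EpiRE 1 or WT 2 and without the 3 libraries. Of 20 cholesterol synthesis genes, 1 was higher, Fdps (0.53, adjusted p = 0.0499). This call was lost at least without any RERE library, EpiRE 2, BRE 2, 3 or 4, or WT 1, 3 or 4, and without the 3 libraries. Of 14 glycolysis genes, 1 was lower, the hexokinase gene Hk2 (BRE minus WT -0.96, adjusted p = 0.0174, lost without BRE replicate 2, WT replicate 3 or the 3 libraries). Of 9 tested hypoxia-responsive genes, 1 was lower, Vegfa, for a growth factor of blood vessels, with levels of 1.95 to 2.65 in BRE and 3.05 to 3.48 in WT (BRE minus WT -0.90, adjusted p = 0.00614, held under every alternative). Of 15 tested antioxidant genes, 2 were lower (3.41% of all genes were called lower), and of these Prdx6, a peroxiredoxin gene, fell by 0.47 (BRE minus WT -0.47, adjusted p = 0.00369, held under every alternative). Of the 19 oxidative phosphorylation genes limma called 0 in BRE against WT, with 0 at an unadjusted p under 0.05 and 0 called by limma-voom. Of 14 immediate early genes it called 0, with 1 at an unadjusted p under 0.05 and 0 called by limma-voom. Of 11 tested glucocorticoid response genes it called 0, with 3 at an unadjusted p under 0.05 and 1 called by limma-voom.

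Cell cycle genes were called in several comparisons. In BRE against WT, 7 of 22 S phase and replication genes were lower (Mcm2, Mcm3, Mcm4, Mcm5, Mcm6, Cdt1 and Prim1), 0 were higher and the list's median was -0.51, while 3.41% of all genes tested were called lower and 2.01% higher, and their median was -0.03. Mcm6, a subunit of the replicative helicase, had levels of 4.46 to 4.59 log2 RPKM in RERE, 4.20 to 4.66 in EpiRE, 3.93, 3.87, 3.93 and 4.36 in BRE, and 4.59, 4.59, 4.62 and 4.89 in WT. BRE replicate 4 was the highest of its group and still below the lowest WT library, and BRE minus WT was -0.65 ± 0.12 (adjusted p = 0.00499). The number of S phase genes called was 3 without BRE replicate 1, BRE replicate 2, BRE replicate 3, WT replicate 3 or WT replicate 4, 12 without BRE replicate 4, and 0 without the 3 libraries of low suprabasal markers. Summed suprabasal markers moved with the same contrast, at 19500 to 25400 RPKM in BRE and 11900 to 19400 in WT. Summed hair follicle markers did so too, at 283 to 346 RPKM in BRE and 384 to 408 in WT, without overlap. Low values of this sum were not confined to BRE, as it was 236 to 388 RPKM in RERE and 260 to 410 in EpiRE. Most of this sum was 1 gene, Krt79, at a geometric mean of 275 RPKM. Of all genes tested, 8.1% had all BRE libraries below all WT libraries. The part of either marker sum in the S phase result was not tested. Krt1, an early suprabasal keratin gene, was higher by 0.50 in BRE than in WT (adjusted p = 0.0248, lost without BRE replicate 2 or 3 or WT replicate 1, 3 or 4).

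G2/M genes were called in the comparison of the mean of EpiRE and BRE with the mean of RERE and WT. There 9 of 20 were higher (Ccna2, Ccnb1, Ccnb2, Aurkb, Top2a, Bub1, Kif11, Tpx2 and Nusap1) and the list's median was 0.78, while 1.86% of all genes were called higher and 2.27% lower (4.13% in all). Their summed level was 54.6 to 82.6 RPKM in RERE, 128 to 175 in EpiRE, 75.1 to 248 in BRE and 84.1 to 146 in WT. EpiRE lay above RERE without overlap, and BRE overlapped each of the other genotypes. Ccnb1, for cyclin B1, had levels of 1.03, 1.11, 1.64 and 1.41 log2 RPKM in RERE, 2.39, 2.46, 2.18 and 2.46 in EpiRE, 1.99, 1.72, 2.42 and 3.02 in BRE, and 1.95, 1.47, 1.47 and 2.65 in WT. In single pairs of genotypes at most 1 G2/M gene was called (RERE minus BRE), but these counts turned on single libraries. In RERE minus EpiRE limma and limma-voom called 0, and the list's median was -1.08. All 20 had an unadjusted p under 0.05 there, against 1412 of all 11045 genes tested. Without BRE replicate 4, 11 were called lower in RERE than in EpiRE. Without BRE replicate 2, 14 were called lower in RERE than in BRE. The count of 9 was 19 without BRE replicate 2, 1 without BRE replicate 3, EpiRE replicate 2, RERE replicate 1, WT replicate 1 or WT replicate 2, 2 without WT replicate 3, 3 without RERE replicate 2, and 4 without EpiRE replicate 3, EpiRE replicate 4 or RERE replicate 4, and was 2 without the 3 libraries of low suprabasal markers and 4 without EpiRE 1 and BRE 4 together.

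**Figure D3:**
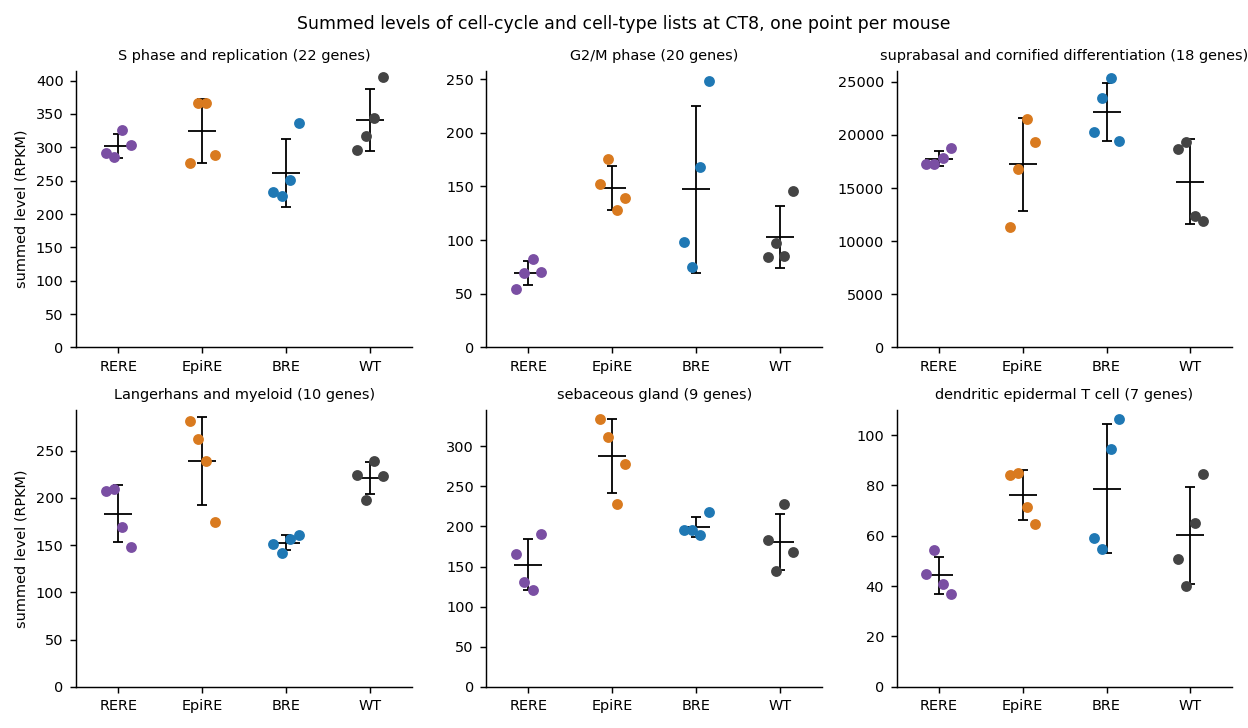
Summed level (RPKM, from 0) of 2 cell cycle lists and 4 cell-type lists in each CT8 library; points are mice, lines means and error bars SD (n = 4 per genotype). G2/M sums are lowest in RERE (54.6 to 82.6 RPKM), Langerhans cell sums lie at 142 to 161 RPKM in BRE, and EpiRE replicate 1, WT replicate 3 and WT replicate 4 have the lowest suprabasal sums.

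Markers of other cells of the skin also differed between genotypes. Langerhans and myeloid markers summed to 148 to 209 RPKM in RERE, 174 to 282 in EpiRE, 142 to 161 in BRE and 198 to 239 in WT. In EpiRE minus BRE, 3 of 8 tested (Cd74, H2-Ab1 and Cd68) were higher, where 1.22% of all genes were called higher. H2-Ab1, for an MHC class II chain, had levels of 5.34, 5.32, 5.42 and 4.45 log2 RPKM in EpiRE and 4.22, 3.83, 4.45 and 4.25 in BRE, so that EpiRE replicate 4 lay among the BRE libraries. The count of 3 was 0 without BRE replicate 1, BRE replicate 2, EpiRE replicate 1 or EpiRE replicate 2, 1 without BRE replicate 3 or EpiRE replicate 3, 5 without EpiRE replicate 4, 0 without the 3 libraries of low suprabasal markers and 1 without EpiRE 1 and BRE 4 together. Sebaceous markers summed to 121 to 190 RPKM in RERE, 228 to 335 in EpiRE, 189 to 218 in BRE and 145 to 228 in WT. Most of this sum was Scd1, the stearoyl-CoA desaturase gene abundant in sebocytes. Its geometric mean was 143 RPKM, against 0.438 to 22.8 for the other members, so Scd1 and the sum are not separate results. Scd1 was lower in RERE than in EpiRE, with levels of 6.96, 6.58, 6.49 and 7.10 in RERE and 7.56, 7.69, 7.45 and 7.65 in EpiRE (RERE minus EpiRE -0.81, adjusted p = 0.00848). Over the 6 tested members the median of RERE minus EpiRE was -1.37, with 1 called lower (0.317% of all genes tested). Hair follicle markers summed to 236 to 388 RPKM in RERE, 260 to 410 in EpiRE, 283 to 346 in BRE and 384 to 408 in WT. Of 6 tested, 1 was lower in BRE than in WT, where 3.41% of all genes tested were called lower. This was Cd34, a marker of bulge stem cells, at -1.63 to -0.20 log2 RPKM in BRE and 0.79 to 1.98 in WT (BRE minus WT -2.32, adjusted p = 0.00251). Its geometric mean of 1.04 RPKM only just passed the filter of 0 log2 RPKM. All its BRE libraries lay below 0, so Cd34 was tested only through its level in other genotypes. Dendritic epidermal T cell markers summed to 37.0 to 54.3 RPKM in RERE, 64.8 to 84.8 in EpiRE, 54.7 to 107 in BRE and 40.0 to 84.4 in WT. This sum was mostly Thy1, at a geometric mean of 36.1 RPKM against 1.39 to 8.74 for the other members. Over the 7 tested members the median of BRE minus WT was -0.78, with 1 called higher and 0 lower (2.01% and 3.41% of all genes tested). The median of EpiRE minus BRE was 0.96, with 0 called. There 5 of the 7 had an unadjusted p under 0.05, against 1957 of all 11045 genes tested. The part of cell makeup in the gene-level differences was not tested.

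RERE and EpiRE share the epidermal Cre and differ in the brain Cre. They differed in 63 genes (28 higher and 35 lower in RERE, 0.57% of those tested, with 0.254% higher and 0.317% lower). Of the core clock genes, 6 were higher and 4 lower in RERE. Nr1d1 was higher by 1.28 (adjusted p = 9.88e-06), Dbp by 1.86 (adjusted p = 7.77e-06), Tef by 0.87 (adjusted p = 7.85e-05), Per3 by 0.94 (adjusted p = 0.000676) and Ccnd2 by 0.83. Lower in RERE were Arntl (RERE minus EpiRE -1.16, adjusted p = 2.1e-05), Npas2 (-1.32, adjusted p = 0.000155) and Leo1 (-0.87, adjusted p = 0.000452). Rsad1 was higher in RERE by 0.87 (adjusted p = 0.00487), with 2.26 to 2.56 in RERE, 1.32 to 1.70 in EpiRE, 0.15 to 0.55 in BRE and 2.07 to 2.53 in WT. The count of 63 was 19 without RERE replicate 1 or 2, 36 without RERE replicate 4, 17 without EpiRE replicate 2 and 115 without BRE replicate 4. The number of core clock genes lower in RERE was 2 without RERE replicate 1, RERE replicate 2, RERE replicate 4 or EpiRE replicate 2.

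RERE and BRE share the brain Cre and differ in the epidermal Cre. They differed in 389 genes (210 higher and 179 lower in RERE, 3.52%, with 1.9% higher and 1.62% lower), a count that no single library moved by more than 1.5 times. More were lower than higher under median-of-ratios scaling (201 higher, 202 lower) and without BRE replicate 2 (157 higher, 178 lower). Of the core clock genes, 10 were higher and 6 lower in RERE. Nr1d1 was higher by 5.17 (adjusted p = 9.02e-15) and Dbp by 4.54, while Npas2 was lower (RERE minus BRE -3.52). RERE minus BRE and BRE minus WT share the BRE libraries, so their values are given side by side. Bhlhe40 was 1.20 in RERE minus BRE and -1.77 in BRE minus WT, and Ttc9 was -2.53 and 2.32.

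EpiRE and BRE, with 1 restored site each, differed in 210 genes (135 higher and 75 lower in EpiRE, 1.9%, with 1.22% higher and 0.679% lower). Of the core clock genes, 7 were higher and 3 lower in EpiRE, with Nr1d1 at 3.89, Dbp at 2.68, Nr1d2 at 2.56, Per3 at 2.16 and Ciart at 1.74 among the higher and Npas2 at -2.20 and Cry1 at -1.49 among the lower. Outside the clock, Arsi was higher in EpiRE by 3.24, while Abhd12b was lower (EpiRE minus BRE -1.40), as were Mrgprb2 (-1.40) and Ttc9 (-1.87). The number called was 139 without EpiRE replicate 1, 85 without EpiRE replicate 2, 93 without BRE replicate 1 or 3 and 83 without BRE replicate 2. Median-of-ratios scaling gave 119 higher and 108 lower.

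Pairs of comparisons that share no library allow the same genes to be looked at in separate mice, although all come from 1 fit with a shared estimate of the spread. Of 599 genes called in BRE minus WT and 63 called in EpiRE minus RERE, 38 were called in both (6.34% and 60.3% of the lists). Their direction was the same for 36, of which 14 were higher (Arntl, Npas2, Cry1, Leo1, Rassf6 and Rdh12 among them) and 22 lower (Nr1d1, Nr1d2, Dbp, Tef, Per3, Ciart, Ccnd2, Rsad1 and Pfkfb3 among them), and was opposite for Nr4a3 and Tnfaip2. The number in both was 16 without EpiRE replicate 2, 17 without RERE replicate 1, 18 without RERE replicate 2 and 20 without RERE replicate 4, and 23 with the replicate number as a block. Of 42 genes called in EpiRE minus WT and 389 in BRE minus RERE, 28 were called in both (66.7% and 7.2%), all in the same direction, 8 higher and 20 lower. That number was 42 without EpiRE replicate 1, 14 without EpiRE replicate 2, 15 without EpiRE replicate 3, 13 without WT replicate 1 and 17 without WT replicate 3, 18 without the 3 libraries of low suprabasal markers and 44 without EpiRE 1 and BRE 4 together.

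Several of these genes had their highest or lowest mean of the day at CT8 in RERE and WT. Mean Nr1d1 at CT0, CT4, CT8, CT12, CT16 and CT20 was 4.85, 6.66, 7.28, 6.01, 4.41 and 3.45 log2 RPKM in RERE, 5.61, 6.31, 6.00, 5.92, 5.41 and 5.15 in EpiRE, 2.02, 2.22, 2.11, 2.00, 2.00 and 2.43 in BRE, and 4.94, 7.21, 7.37, 6.29, 4.13 and 3.30 in WT. CT8 held the highest Nr1d1, Dbp and Ccnd2 means of RERE and of WT, and the lowest Arntl mean of RERE (2.83), while the lowest Arntl mean of WT was at CT12 (2.75). EpiRE Nr1d1 stayed between 5.15 and 6.31 and BRE Nr1d1 between 2.00 and 2.43. Dbp ranged from 0.81 to 6.85 in RERE, from 3.58 to 5.24 in EpiRE, from 1.87 to 2.32 in BRE and from 1.39 to 6.82 in WT. For EpiRE and BRE the CT of a library rests on its sample title and the column headers of the log2 RPKM table, with no further check.

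**Figure D4:**
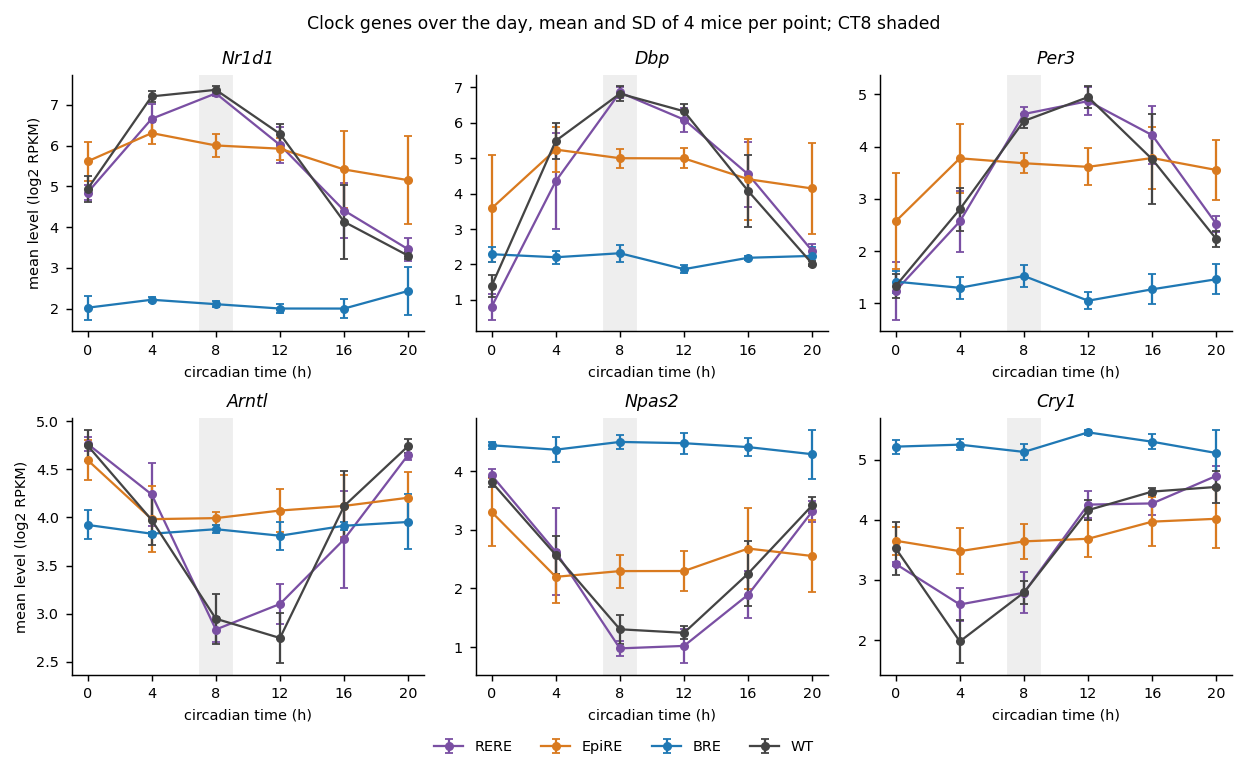
Mean level (log2 RPKM, vertical axes that do not start at 0) of 6 clock genes against circadian time (h) in the 4 genotypes; error bars are SD (n = 4 mice per point) and CT8 is shaded. At CT8 the Nr1d1 and Dbp means of RERE and WT are at their highest and close together, EpiRE lies between them and BRE, and BRE Nr1d1 stays between 2.00 and 2.43 over the 6 times.

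The genotype differences of CT8 were set against their mean at the other 5 times in a fit of all 96 libraries. For BRE minus WT, 33 of 11028 genes (0.299%) differed between CT8 and the other times, 8 in the higher (0.0725%) and 25 in the lower direction (0.227%). Dbp was -4.50 at CT8 and -1.70 at the other times (CT8 minus other -2.80, adjusted p = 0.000447) and Nr1d1 was -5.26 and -3.04 (-2.22, adjusted p = 8.38e-05). Arntl changed sides, at 0.93 at CT8 and -0.18 at the other times (1.11, adjusted p = 0.000118), and Npas2 was 3.20 and 1.74 (1.46, adjusted p = 0.00178). Ciart (-3.31 and -1.14), Tef (-1.66 and -0.46), Ccnd2 (-1.47 and -0.31), Arsi (-3.96 and -1.85) and Cry2 (-0.66 and 0.09) were also lower at CT8. Those 9 calls held without each CT8 library in turn. The count of 33 was 18 without BRE replicate 2, 14 without BRE replicate 3, 19 without BRE replicate 4, 21 without WT replicate 2 and 17 without WT replicate 3.

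For EpiRE minus WT, 17 genes (0.154%) differed between CT8 and the other times. Nr1d1 was -1.37 at CT8 and 0.51 at the other times (CT8 minus other -1.88, adjusted p = 0.00291), so that EpiRE was below WT at this time and above it on average at the others. Dbp was -1.82 and 0.61 (-2.44, adjusted p = 0.0084, and 0.0555 without EpiRE replicate 2), and Ccnd2 was -0.75 and 0.21 (-0.97, adjusted p = 0.0084, and 0.0516 without WT replicate 3). Arntl was 1.05 and 0.13 (0.92, adjusted p = 0.00418) and Leo1 was 0.72 and 0.05 (0.67, adjusted p = 0.00291), and these calls and that of Nr1d1 held without each CT8 library. Tef (CT8 minus other -1.14, adjusted p = 0.0187) and Ciart (-1.79, adjusted p = 0.0187) lost their calls without EpiRE replicate 2, EpiRE replicate 3, WT replicate 3 or WT replicate 4, and Tef also without WT replicate 1. The count of 17 was 26 without EpiRE replicate 1, 6 without EpiRE replicate 2, 8 without EpiRE replicate 3, 11 without EpiRE replicate 4, 8 without WT replicate 1, 11 without WT replicate 2, 9 without WT replicate 3 and 8 without WT replicate 4.

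For RERE minus EpiRE, 77 genes (0.698%) differed between CT8 and the other times. Dbp was 1.86 at CT8 and -0.84 at the other times (CT8 minus other 2.70, adjusted p = 0.000822), Nr1d1 was 1.28 and -0.61 (1.88, adjusted p = 0.000659), Tef was 0.87 and -0.35 (1.22) and Ccnd2 was 0.83 and -0.26 (1.09), so that RERE lay above EpiRE at CT8 and below it on average at the others. Arntl (-1.16 and -0.09, CT8 minus other -1.07), Npas2 (-1.32 and -0.05, -1.27) and Leo1 (-0.87 and -0.03, -0.83) were lower in RERE at CT8. These 7 calls held without each CT8 library, although limma-voom did not call Npas2, and Nfil3 (-2.26 and 0.12, CT8 minus other -2.39, adjusted p = 0.0067) was lost without RERE replicate 1 (0.0629). The count of 77 was 35 without RERE replicate 1, 29 without RERE replicate 2, 43 without RERE replicate 3, 24 without EpiRE replicate 2 and 160 without EpiRE replicate 3. RERE minus BRE had 44 such genes (0.399%), and 20 without RERE replicate 1, 26 without RERE replicate 2, 27 without RERE replicate 3, 24 without RERE replicate 4, 23 without BRE replicate 3 and 18 without BRE replicate 4. RERE minus WT had 0 called (271 at an unadjusted p under 0.05, 0 by limma-voom), and EpiRE minus BRE had 0 (923 at an unadjusted p under 0.05, 1 by limma-voom). The count for EpiRE minus BRE was 1 without RERE replicate 2 or 4, 3 without EpiRE replicate 3 and 2 without BRE replicate 4. The comparisons share libraries, so their gene lists were not compared with each other.

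**Figure D5:**
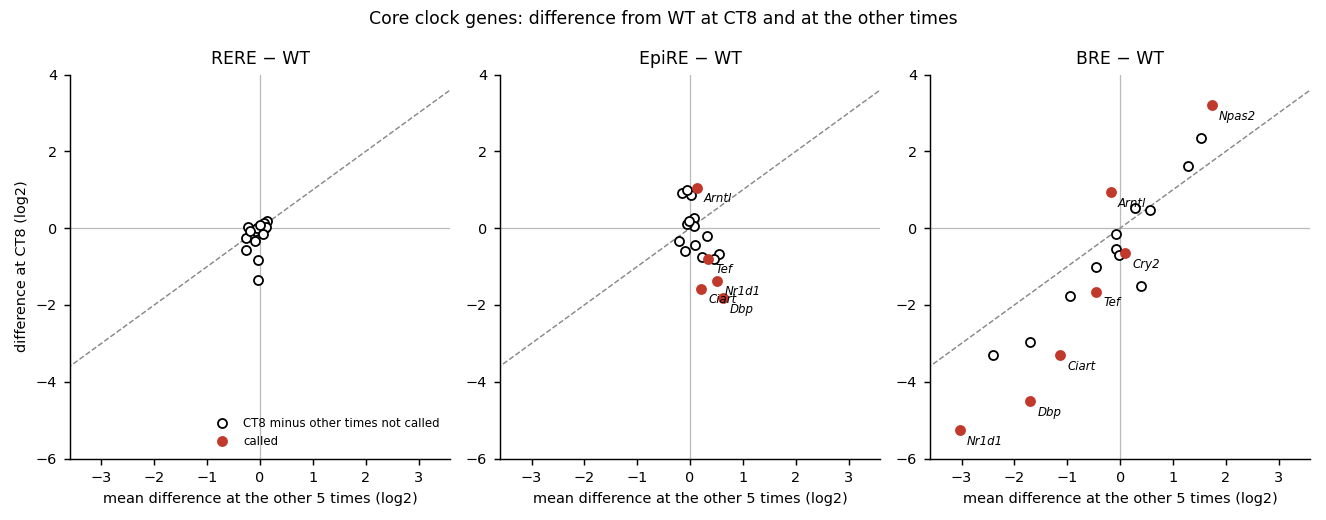
Difference from WT at CT8 (log2, vertical) against the mean difference at the other 5 times (log2, horizontal) for the 19 tested core clock genes; the dashed line marks equal differences and filled points are genes called for CT8 minus other times. RERE minus WT has 0 filled points, EpiRE minus WT has 5 and BRE minus WT has 7, among them Dbp at -4.50 and -1.70.

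Mice of 1 genotype differed from each other least in RERE. The median SD over all genes tested was 0.119 (log2) in RERE, 0.179 in EpiRE, 0.130 in BRE and 0.167 in WT, and over the core clock genes it was 0.172 in RERE, 0.288 in EpiRE, 0.226 in BRE and 0.233 in WT. These SD are given as a description, with no test. Per1 had the widest clock spread in EpiRE at an SD of 0.96, and Nr1d1 had an SD of 0.06 in RERE, 0.29 in EpiRE, 0.07 in BRE and 0.09 in WT.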

How the data were processed

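Polyadenylated RNA of dispase-separated epidermis was sequenced from 96 mice, and the 16 CT8 libraries were compared. Per the labels' protocols, a stranded kit with unique molecular identifiers was used; the sources used here do not say whether counting used identifiers or strand, so overlapping genes, antisense partners and near-identical copies may share reads. Per the submitters' processing notes, the authors' tools were edgeR (version not given), featureCounts 1.6.0, SAMtools 1.3.1, HISAT2 2.2.1 and Trimmomatic 0.36, and the build was mm10. The deposited values are log2 RPKM per library, in 1 table per genotype, and these set the genotype and time of each library by column name. The JTK_CYCLE tables, deposited by the authors with adjusted p-values of a rhythmicity test, were read for gene symbols alone. Their 96 columns per library carry codes that match no label and were not used. The leading digits of these codes run in order in the WT and RERE tables and out of order in those of EpiRE and BRE. In EpiRE and BRE the CT therefore rests on the sample titles and the column headers of the log2 RPKM tables, and these codes give no check of it.

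From the log2 values, whole reads could be recovered for 22442 of 22497 genes (99.76%), with 100% of their values within 0.1 read and a prior of 0.25 reads. They served for depth and for limma-voom alone. Read counts limit the precision of low genes, and errors given here come from the spread between libraries.

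The test took in the genes whose 16 CT8 libraries averaged 0 log2 RPKM or more. It was done with limma 3.58.1 in R 4.3.3 (moderated two-sided tests, empirical Bayes with a mean trend, genotype as a factor of 4), in 6 pairs of genotypes, in the mean of EpiRE and BRE minus that of RERE and WT, and in an F test over genotypes, which called 477 genes (4.32%). A call is an adjusted p (Benjamini-Hochberg) under 0.05. CT8 was set against the mean of the other 5 times in 1 fit of 96 libraries in 24 groups. Arntl, the targeted gene, was also tested by exact permutation. The code was tested on simulated data. Libraries of 1 genotype were checked for duplicates and none were alike within sampling noise (chi-square per degree of freedom 7.94 to 60.54 over 24 pairs). Coordinates are those of GENCODE for 22434 genes (mm10), promoters those of RefSeq.

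Gene lists (41, with 441 genes, of which 433 were matched and 8 not analysed here) and the members were chosen with earlier results of these data known. Named were, for each comparison, the 8 higher and 8 lower called genes of largest difference with a mean of 5 RPKM or more in either genotype and a symbol of a known gene, those of smallest F p, 5 each for CT8 minus other times, all clock genes, and from other lists the called members or up to 3 of the highest level; not all are printed, and some genes are not reported here. Alternatives were other scalings, filters, a pseudocount of 1 RPKM, limma-voom, no mean trend, the replicate number as a block, the spread of all 96 libraries, both genotypes of a pair alone, joint adjustment and each library left out. Leaving out 3 libraries of low suprabasal markers, and EpiRE 1 with BRE 4, was chosen after seeing the data.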

Additional observations from a re-analysis of the deposited data

Results flagged for a closer look

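Within each group of 4 libraries, the level of every gene whose libraries are described above, the marker sums and the depth were examined for a library that stands apart from the other 3 by more than Dixon's 95% limit. Chance flags about 1 in 20 groups, and here 12 of 204 groups were flagged. EpiRE replicate 1 was low for Clock (3.08 log2 RPKM) and Cry1 (3.21). EpiRE replicate 3 was high for Pdxk (2.82) and low for Abhd12b (2.56), and EpiRE replicate 4 was low for H2-Ab1 (4.45). BRE replicate 3 was high for Abhd12b (4.89) and BRE replicate 4 low for Mrgprb2 (2.47). WT replicate 4 was high for Acadl (5.04). Among near-absent cell types, EpiRE replicate 1 stood apart in summed endothelial markers (0.773 RPKM), BRE replicate 2 in Merkel cell markers (2.77 RPKM) and BRE replicate 4 in mast cell and neutrophil markers (1.03 RPKM). WT replicate 1 had the fewest reads of its group (12.07 M).

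The difference between genotypes was itself tested for a change between CT8 and the other times (CT8 minus the mean of the other 5, log2), and 24 of the 24 tests reported for named genes passed an adjusted p of 0.05, as those genes were named for it. For BRE minus WT the values were -2.22 for Nr1d1, -2.80 for Dbp, -2.18 for Ciart, -1.21 for Tef, -1.16 for Ccnd2, 1.46 for Npas2, 1.11 for Arntl, -2.11 for Arsi and -0.75 for Cry2. For EpiRE minus WT they were -1.88 for Nr1d1, -2.44 for Dbp, -0.97 for Ccnd2, -1.14 for Tef, -1.79 for Ciart, 0.92 for Arntl and 0.67 for Leo1. For RERE minus EpiRE they were 1.88 for Nr1d1, 2.70 for Dbp, 1.22 for Tef, 1.09 for Ccnd2, -1.07 for Arntl, -1.27 for Npas2, -0.83 for Leo1 and -2.39 for Nfil3.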

How the results depend on the processing

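No call of a named gene changed sign under any alternative tried. Which direction held more calls did turn for 6 counts. For RERE minus BRE (210 higher, 179 lower) it was 201 and 202 under median-of-ratios scaling and 157 and 178 without BRE replicate 2. For RERE minus EpiRE (28 and 35) it was 17 and 13 with the replicate block. For EpiRE minus WT (15 and 27) it was 13 and 11 without the 3 libraries of low suprabasal markers. For the mean of EpiRE and BRE against that of RERE and WT (205 and 251) it was 232 and 221 without WT replicate 4 and 202 and 197 without BRE replicate 2. For CT8 minus other times it turned in EpiRE minus WT (7 and 10), at 4 and 2 without EpiRE replicate 2, and in RERE minus EpiRE (35 and 42), at 45 and 37 under median-of-ratios scaling. Counts of called genes moved by more than 1.5 times under these settings, whose cause was not tested. RERE minus EpiRE (63) had 41 genes at a filter of 5 RPKM, 30 with the replicate block, 98 with both genotypes alone and 113 with joint adjustment over the 6 pairs. EpiRE minus BRE (210) had 134 with the replicate block, 613 with the spread of all 96 libraries and 73 with both genotypes alone. BRE minus WT (599) had 1077 with the 96-library spread, 388 with joint adjustment, 295 without the 3 libraries of low suprabasal markers and 940 without EpiRE 1 and BRE 4. RERE minus BRE (389) had 584 and 676 with the 96-library spread and without the 3 libraries. EpiRE minus WT (42) had 12 with both genotypes alone, 72 with joint adjustment, 24 without the 3 libraries and 82 without EpiRE 1 and BRE 4. RERE minus WT (0) had 17 with joint adjustment. For CT8 minus other times, EpiRE minus BRE (0) had 1 by limma-voom, and against CT20 alone EpiRE minus WT had 28, BRE minus WT 77 and RERE minus EpiRE 42.

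Leaving out each library in turn gave 273 to 617 genes in the F test, where 288 remained without BRE replicate 2 and 273 without BRE replicate 3, 0 to 0 in RERE minus WT, 15 to 85 in EpiRE minus WT, 329 to 896 in BRE minus WT, 17 to 115 in RERE minus EpiRE, 260 to 494 in RERE minus BRE, 83 to 289 in EpiRE minus BRE and 326 to 686 in the mean of EpiRE and BRE against that of RERE and WT (456, and 686 without EpiRE replicate 1). For CT8 minus other times the ranges were 0 to 0 in RERE minus WT, 6 to 26 in EpiRE minus WT, 14 to 39 in BRE minus WT, 24 to 160 in RERE minus EpiRE, 18 to 45 in RERE minus BRE and 0 to 3 in EpiRE minus BRE. Arntl differences (log2) ranged from -0.19 to -0.02 in RERE minus WT, 0.97 to 1.13 in EpiRE minus WT, 0.85 to 1.02 in BRE minus WT, -1.20 to -1.10 in RERE minus EpiRE, -1.09 to -0.99 in RERE minus BRE and 0.09 to 0.14 in EpiRE minus BRE.

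Replicate numbers were not treated as pairs of mice in the main fit, and whether same-numbered mice were handled together was not tested. The correlation of same-numbered libraries' deviations was -0.309 to 0.231 over 24 pairs, with 9 above 0.1. The replicate block otherwise gave 355 in the F test, 0 in RERE minus WT, 32 in EpiRE minus WT, 545 in BRE minus WT, 361 in RERE minus BRE and 411 in the mean comparison. Of 279 calls of named genes, 160 held under every alternative tried, and 176 held without each library. Depth limits low genes such as Ciart and Arsi in BRE.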
